A study of Pimephales promelas with 139 samples.

Results

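The transcripts described here are the 100 whose level followed the concentration of ethinyl estradiol most closely in the first of 3 exposure experiments on fathead minnow (Pimephales promelas) larvae. They were chosen by the Spearman rank correlation (rho) between CPM (counts scaled to a common library total) and concentration over the 45 usable libraries of experiment 1. Of 37085 transcripts in the deposited table, 28676 averaged at least 1 CPM in those libraries or in their 10 ng/L group and were ranked, and the 100 highest are the members. Their experiment 1 values are therefore a description. The response was tested only in the 93 libraries of experiments 2 and 3, whose counts did not enter the ranking. The rule itself was set with earlier results of these data known.

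Exposure began 48 h after hatching and lasted 48 h under static conditions. The water held 0 ng/L (control), 0.12 ng/L, 1.2 ng/L, 2.5 ng/L, 5 ng/L or 10 ng/L of ethinyl estradiol, a synthetic estrogen used in contraceptive pills, and messenger RNA of whole larvae was sequenced at 96 h. Experiments 2 and 3 together hold, from control to the highest concentration, 19, 12, 20, 12, 12 and 18 libraries. Neither a strain nor the vessel or parents of a larva are given in the labels, so p-values measure the spread between these libraries. A whole larva mixes all tissues, and more cells of a type cannot be told apart from more RNA per cell.

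Estrogens act in fish mainly through nuclear estrogen receptors, which bind the hormone and switch on target genes. The best known targets in liver are the vitellogenins, precursors of egg yolk that adult females make and that males and juveniles make when exposed to estrogens. None of the identifiers in the table matched the gene table of the species (0 of 64593 genes), so no member is given a gene name or role here, and members are called by their identifiers.

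Total counts in experiments 2 and 3 ran from 10468432 to 32906788 reads per library, and a member had a median of 605 reads per library. Group medians of the total lay between 21183232 and 24165524.5, those of the scaling factor between 0.985 and 1.03, and those of the number of transcripts with a read between 36474.5 and 36637.5. The 2.5 ng/L group held the lowest of each. The scaling factors given here were worked out over all 139 libraries without a low-count filter, and the fit computed its own. All 100 members passed the filter on low counts in experiments 2 and 3, which needs enough reads in only a part of the libraries. FMt030407 and FMt030406 passed it through exposed larvae, where they are high. In controls they reached at most 0.315 and 0.339 CPM.

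In experiment 1 rho ran from 0.435 to 0.949 with a median of 0.469 among the members, against a median of 0.00369 over all ranked transcripts. FMt019919, FMt030408, FMt030406 and FMt030407 stood far above the rest at 0.949, 0.949, 0.936 and 0.912, and the fifth, FMt026224, had 0.611. The threshold did not mark a gap: the last member, FMt033046, had 0.4349, and the first transcript below it, FMt006982, had 0.4346.

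Set against the same measure in the other experiments, the members split into a few that kept a high rank correlation and many that did not. Their median rho was 0.169 in experiment 2 and 0.0679 in experiment 3, against -0.0148 and -0.0287 over all ranked transcripts. Of the 100 members, 76 had a rho above 0 in experiment 2, against 45.5% of all ranked transcripts, and 64 had one in experiment 3, against 44.3%. A rho of at least 0.3 in both experiments was found for 8 members and for 0.119% of all ranked transcripts. These 8, listed after their values were seen, are FMt030408, FMt030407, FMt030406, FMt019919, FMt008590, FMt007497, FMt034645 and FMt024631.

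**Figure D1:**
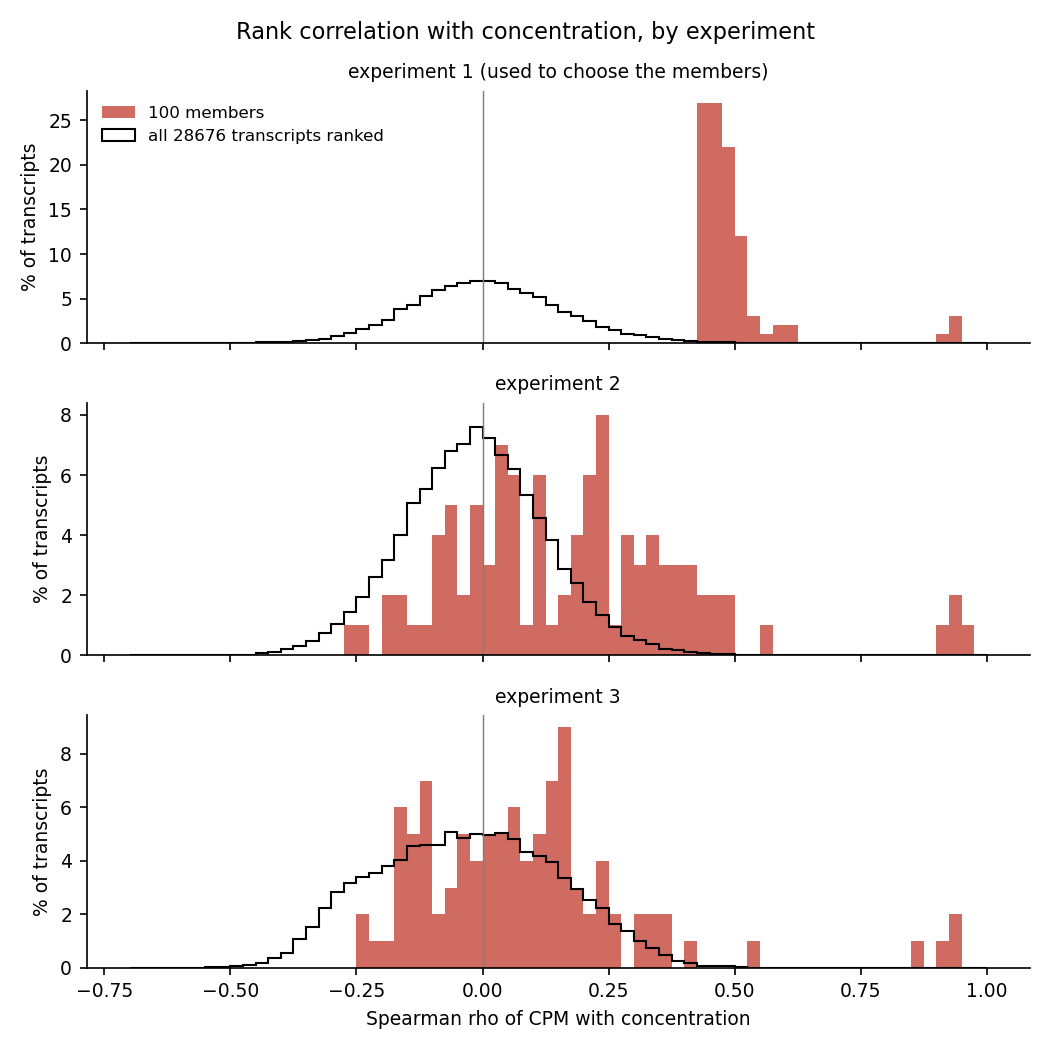
Distribution of Spearman rho between CPM and concentration in each experiment, as percent of transcripts, for the 100 members (red) and all 28676 ranked transcripts (black line). The members lie between 0.435 and 0.949 in experiment 1, which chose them, and spread from -0.274 to 0.952 in experiment 2 and from -0.243 to 0.936 in experiment 3, with 4 of them apart at the upper end each time.

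The response in experiments 2 and 3 was tested as a slope, the change in log2 level per unit of log2 of the concentration plus 0.12 ng/L, a scale on which control and 10 ng/L lie 6.40 units apart. In the quasi-likelihood test of edgeR, with p-values adjusted over 35007 transcripts by the Benjamini-Hochberg method, 5 members rose with concentration and 0 fell (adjusted p under 0.05). Over all transcripts tested, 0.0286% were called rising and 0.0286% falling, 10 in each direction. The 5 are FMt030408, FMt030407, FMt030406, FMt019919 and FMt008590, ranked 2, 4, 3, 1 and 8 in experiment 1.

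FMt030408 reached the highest counts of the 5. Its lowest, median and highest values were 0.174, 0.374 and 1.07 CPM in control larvae, while the 0.12 ng/L larvae had 0.0987, 0.468 and 1.06 CPM and the 1.2 ng/L larvae 0.72, 10.1 and 36.4 CPM. The 2.5 ng/L larvae had 11.4, 24.6 and 40.5 CPM, the 5 ng/L larvae 36.4, 95.4 and 218 CPM, and the 10 ng/L larvae 79.9, 165 and 301 CPM. No 0.12 ng/L larva exceeded the highest control, 19 of the 20 exposed to 1.2 ng/L did, and so did every larva from 2.5 ng/L upward. Here and below the highest control is that of both experiments together unless the experiment is named. Against the controls of experiment 2 alone, 1 of its 6 larvae at 0.12 ng/L was higher, and in experiment 3 0 of 6. At 1.2 ng/L 10 of 10 larvae were higher than the controls of their own experiment in each. Each group overlapped the next, also 0.12 and 1.2 ng/L, where the highest 0.12 ng/L value of 1.06 CPM lay above the lowest 1.2 ng/L value of 0.72 CPM. The slope was 1.41 ± 0.05 (SE, log2 per unit, adjusted p = 9.44e-46), and it was 1.39 ± 0.06 in experiment 3 and 1.45 ± 0.07 in experiment 2, a difference of -0.067 ± 0.092 (unadjusted p = 0.471).

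FMt030407 and FMt030406 carry the neighbouring identifiers and followed the same course at lower counts. FMt030407 had 0, 0.0853 and 0.315 CPM (lowest, median, highest) in control larvae, 0, 0.0892 and 0.395 CPM in the 0.12 ng/L larvae, and 0.227, 1.95 and 6.43 CPM in the 1.2 ng/L larvae. The 2.5 ng/L larvae had 0.832, 3.99 and 8.66 CPM, the 5 ng/L larvae 3.96, 19.5 and 43.6 CPM, and the 10 ng/L larvae 16.2, 34.8 and 59.2 CPM. Of the 20 larvae at 1.2 ng/L, 18 exceeded the highest control, as did all larvae at 2.5 ng/L and above. FMt030406 had medians, from control to 10 ng/L, of 0.0727, 0.0423, 1.1, 1.98, 12.3 and 18.7 CPM. Its highest control value was exceeded by 17 of the 20 larvae exposed to 1.2 ng/L. Slopes were 1.42 ± 0.05 for FMt030407 and 1.39 ± 0.06 for FMt030406 (SE, log2 per unit).

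Around the mean of their own group and experiment, the 3 transcripts also moved together from larva to larva. Over the 62 larvae at 1.2 to 10 ng/L the Pearson correlation of their log2 levels was 0.91 between FMt030408 and FMt030406, 0.90 between FMt030408 and FMt030407 and 0.87 between FMt030406 and FMt030407. These values come from the same libraries and share their depth, and the sources used here do not give how reads common to similar transcripts were assigned, so the 3 cannot be taken as separate responses.

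FMt019919 rose less steeply than the 3 neighbours. It had 0.116, 0.446 and 0.899 CPM (lowest, median, highest) in control larvae, 0.0494, 0.203 and 0.486 CPM in the 0.12 ng/L larvae, and 0.283, 0.811 and 1.63 CPM in the 1.2 ng/L larvae. The 2.5 ng/L larvae had 0.732, 1.15 and 2.03 CPM, the 5 ng/L larvae 1.11, 2.24 and 3.44 CPM, and the 10 ng/L larvae 2.03, 3.74 and 5.77 CPM. The highest control was exceeded by 6 of the 20 larvae exposed to 1.2 ng/L, 10 of the 12 exposed to 2.5 ng/L and all larvae exposed to 5 or 10 ng/L. Against the controls of their own experiment, 8 of 10 larvae at 1.2 ng/L were higher in experiment 2 and 2 of 10 in experiment 3. At 2.5 ng/L these were 6 of 6 and 5 of 6. The slope of FMt019919 was 0.52 ± 0.03 (SE, log2 per unit), 0.47 ± 0.05 in experiment 3 and 0.58 ± 0.04 in experiment 2. The difference between experiments of -0.11 ± 0.06 was not called (edgeR adjusted p = 0.823). Larva by larva within groups its correlation with FMt030408 was -0.07 over the 62 larvae at 1.2 to 10 ng/L and 0.30 over the 18 at the highest concentration. With FMt030406 and FMt030407 it was -0.05 and 0.00 over the 62 larvae, and 0.38 and 0.46 over the 18.

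At the lowest concentration FMt019919 differed from controls in the opposite direction, without a call. Its difference between 0.12 ng/L and control larvae was -0.82 ± 0.24 on the log2 scale (SE, unadjusted p = 0.00114, edgeR adjusted p = 1), and 1 of the 12 exposed larvae lay above the control median. In experiment 1, by contrast, the 0.12 ng/L median was 0.299 CPM against 0.216 CPM in controls. That is a description, since experiment 1 chose the member. In experiments 2 and 3 FMt019919 was scarce in either group, with 0.203 CPM (exposed, median) against 0.446 CPM (controls, median). The differences in both directions therefore rest on few reads per library.

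**Figure D2:**
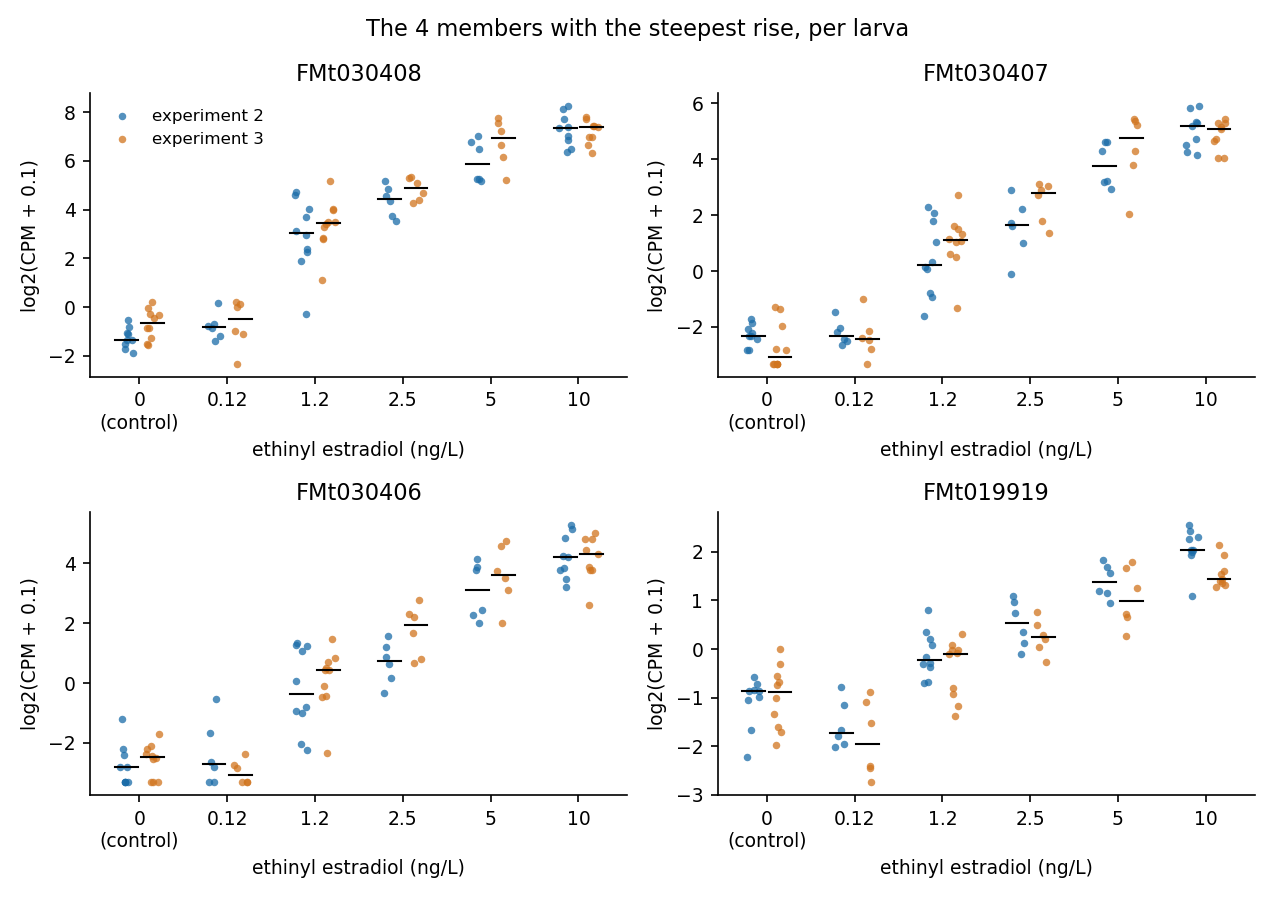
Levels of the 4 steepest members in each larva of experiments 2 (blue) and 3 (orange) by concentration, as log2(CPM + 0.1), with black lines at the group medians. For the 3 neighbours FMt030408, FMt030407 and FMt030406 the 0.12 ng/L larvae overlap the controls and most 1.2 ng/L larvae lie above them. FMt019919 climbs more slowly, to a median of 3.74 CPM at 10 ng/L. Concentrations are drawn at equal distances although their ratios differ, so the shape of the rise cannot be read from the spacing.

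FMt008590 was the only other member called, with a far smaller change. Its lowest, median and highest values were 4.52, 5.39 and 6.29 CPM in control larvae, 3.27, 5.37 and 7.39 CPM in the 0.12 ng/L larvae, and 4.03, 5.71 and 7.86 CPM in the 1.2 ng/L larvae. The 2.5 ng/L larvae had 4.8, 6.02 and 8.4 CPM, the 5 ng/L larvae 4.63, 7.13 and 10.5 CPM, and the 10 ng/L larvae 4.24, 7.95 and 10.3 CPM. All exposed groups overlapped the controls. From 0.12 to 10 ng/L, the highest control was exceeded by 3 of 12, 6 of 20, 5 of 12, 8 of 12 and 13 of 18 larvae. Against the controls of experiment 2 alone it was 3 of 6 at 0.12 ng/L and 3 of 6 at 5 ng/L, and in experiment 3 1 of 6 and 5 of 6. The controls had an SD of 0.511 CPM, against 1.04 to 1.83 CPM in the exposed groups. The part of this in the counts was not tested. Within groups FMt008590 correlated with FMt030408, FMt030406 and FMt030407 at 0.26, 0.27 and 0.28 over the 62 larvae at 1.2 to 10 ng/L. Over the 18 larvae at 10 ng/L the values were 0.66, 0.64 and 0.62. The slope was 0.076 ± 0.013 (SE, log2 per unit, edgeR adjusted p = 0.000231), which amounts to 1.4-fold over the whole range. It was 0.097 ± 0.019 in experiment 3 (edgeR adjusted p = 0.0298) and 0.058 ± 0.017 in experiment 2 (adjusted p = 0.587), and the difference of 0.036 ± 0.025 was not called (edgeR adjusted p = 0.823). The call in experiment 3 was lost with the replicate block (adjusted p = 0.129), with limma-voom (adjusted p = 0.116) and with the untransformed concentration (adjusted p = 0.0932).

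Concentration by concentration, against the controls of experiments 2 and 3, the calls of the edgeR fit among the members came from the same 5 transcripts. A sixth, FMt007497, missed the threshold at 10 ng/L (0.75 ± 0.17, edgeR adjusted p = 0.0541) and was called there under RLE scaling, without a low-count filter, with a minimum mean of 1 CPM, by DESeq2 and without the experiment term. At 0.12 ng/L 0 members were called, with 5 higher and 2 lower at an unadjusted p under 0.05 (2.21% and 1.88% of all transcripts), and DESeq2 and limma-voom also called 0. There FMt030408, FMt030407 and FMt030406 differed from controls by 0.29 ± 0.42, 0.28 ± 0.66 and -0.05 ± 0.66 (SE, log2), which leaves their level at 0.12 ng/L loosely determined. At 1.2 ng/L the 3 neighbours were called higher, FMt030408 by 4.69 ± 0.31, FMt030407 by 4.38 ± 0.41 and FMt030406 by 3.86 ± 0.43 (SE, log2). FMt030406 was not called by limma-voom (3.61, adjusted p = 0.16), and in a fit of these 2 groups only it did not pass the low-count filter. FMt019919 was 0.89 ± 0.19 higher there and not called (edgeR adjusted p = 0.0765), though DESeq2 called it (adjusted p = 0.0112). All 4 were called higher in the 2.5 and 5 ng/L larvae, and FMt008590 was called with them in the 10 ng/L larvae. In the 10 ng/L larvae FMt030408 was 357-fold, FMt030407 327-fold, FMt030406 250-fold, FMt019919 8.13-fold and FMt008590 1.39-fold the control level. The control medians of the first 4 were 0.374, 0.0853, 0.0727 and 0.446 CPM, so their folds rest on few control reads. The background of calls toward higher levels was, from the lowest to the highest concentration, 0%, 0.00857%, 0.0114%, 0.0143% and 0.0343% of 35007 transcripts. Toward lower levels 0 members were called at any concentration, against 0%, 0%, 0%, 0.00286% and 0.0171% of all transcripts. The call of FMt008590 at 10 ng/L (0.47 ± 0.10, edgeR adjusted p = 0.0142) was lost within each experiment alone, at log2 differences of 0.53 in experiment 3 and 0.43 in experiment 2 (adjusted p = 0.471 and 0.953).

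Without the controls, over the larvae exposed to 0.12 to 10 ng/L, the slope on log2 concentration was called for 4 members, against 0.0144% of 34625 transcripts called rising. FMt030408 had 1.30 ± 0.06, FMt030407 1.33 ± 0.07, FMt030406 1.35 ± 0.07 and FMt019919 0.63 ± 0.03 (SE, log2 per doubling). FMt008590 had 0.073 ± 0.018 and was not called (edgeR adjusted p = 0.309). The slopes of 0 members were called different between experiments 3 and 2 by edgeR, by DESeq2 or by limma-voom, against 0.00571% of all transcripts called steeper and 0% less steep in experiment 3 by edgeR. At an unadjusted p under 0.05, 1 member was steeper and 11 were less steep in experiment 3 than in experiment 2, against 2.72% and 2.83% of all transcripts tested.

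Of the other 95 members 0 were called, 80 had a slope above 0 and 21 of these had an unadjusted p under 0.05. Including the 5 called, 85 of the 100 members had a slope above 0 in experiments 2 and 3, against 49.1% of all transcripts tested, and 26 had a slope above 0 at an unadjusted p under 0.05, against 3.76%. The count of 26 was 14 with the untransformed concentration as covariate, for which the share over all transcripts is not given here. In the opposite direction 0 members reached an unadjusted p under 0.05, against 3.27%. The median slope of the 95 was 0.0143, with quartiles of 0.00585 and 0.0254, and that of all transcripts was -0.000514, with quartiles of -0.0143 and 0.0137 (log2 per unit). Fitted alone, experiment 3 called 5 members rising (4 with the replicate block, without FMt008590), against 0.0199% of all transcripts, and experiment 2 called 4, against 0.02%. Toward lower levels each called 0 members, against 0.0114% of all transcripts in experiment 3 and 0.00571% in experiment 2. Slopes above 0 were found for 74 members in experiment 3, against 54.5% of transcripts, and for 83 in experiment 2, against 51.1%. At an unadjusted p under 0.05 experiment 3 had 16 members higher and 0 lower, against 5.42% and 3.91% of all transcripts, and experiment 2 had 28 higher and 0 lower, against 2.48% and 1.74%. In both experiments at once 61 members had a slope above 0 and 4 a slope below 0, against 27.9% and 22.2% of all transcripts.

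**Figure D3:**
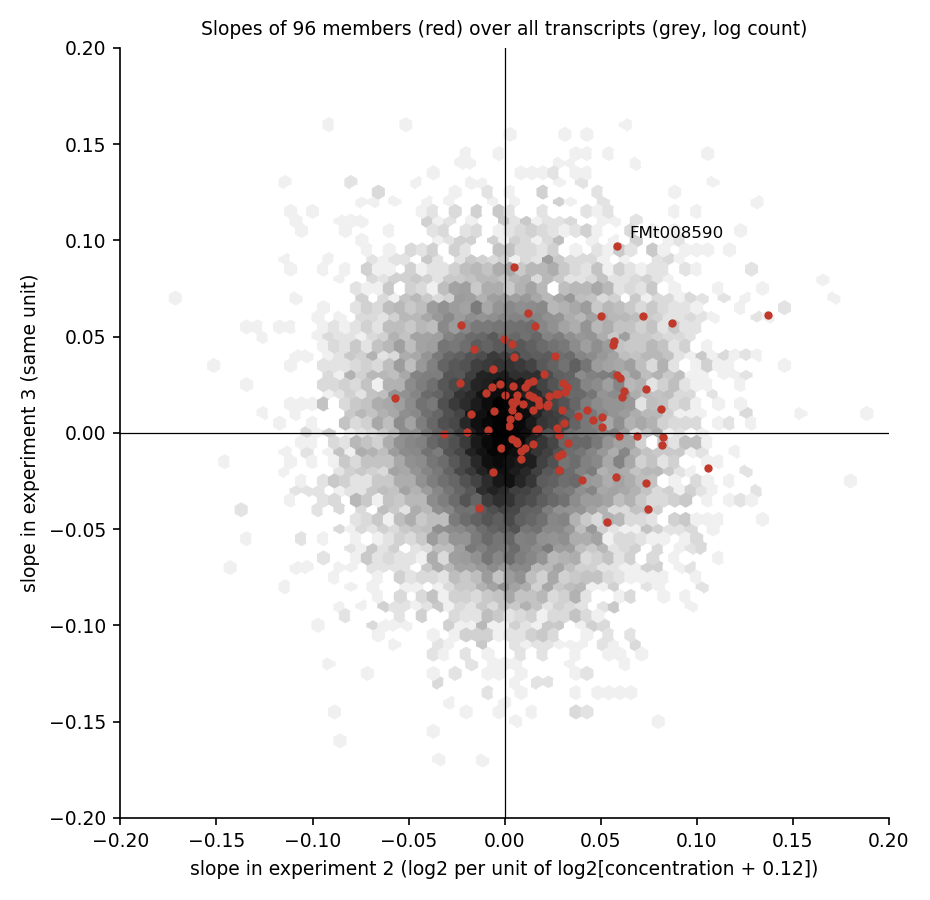
Slope in experiment 3 against slope in experiment 2 (log2 per unit of log2[concentration + 0.12 ng/L]) for 96 members (red points) over all transcripts (grey, darker where more lie). The 4 steepest members lie outside the axes. The other members sit mostly to the right of 0 and above it, and FMt008590 is the highest of them in experiment 3 at 0.097.

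By single concentrations, from 0.12 to 10 ng/L, the members with a fitted difference above 0 numbered 63, 81, 81, 68 and 83, against 48.2, 51.1, 49.8, 48.5 and 47.9% of all transcripts. In the same order 5, 18, 32, 13 and 26 members were higher at an unadjusted p under 0.05, against 2.21, 2.19, 4.86, 5.43 and 2.91% of all transcripts. Lower at that p were 2, 1, 0, 1 and 0 members, against 1.88, 1.46, 7.18, 5.7 and 2.2% of all transcripts. The median log2 difference of the 95 was 0.038, 0.083, 0.14, 0.059 and 0.093 in that order, so it did not climb steadily from 1.2 ng/L on. These 5 comparisons share their control larvae and are given side by side only. The highest count fell in the 2.5 ng/L group, which also had the lowest median total, scaling factor and number of transcripts with a read, and the part of these in the count was not tested. Among exposed larvae alone 72 members had a slope above 0, against 48.8% of transcripts, and 9 did at an unadjusted p under 0.05, against 1.63%, while 0 were below 0 at that p, against 1.57%.

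Averaged over the 95 members, each larva of experiment 1 at 10 ng/L lay between 0.16 and 0.60 above the mean of the controls on the log2 scale, and the controls between -0.18 and 0.22. In experiment 2 the range was -0.15 to 0.39 at 10 ng/L against -0.10 to 0.07 in controls, and in experiment 3 it was -0.10 to 0.18 at 10 ng/L against -0.22 to 0.28 in controls. In experiment 1, which chose the members, the highest control was exceeded by 9 of the 10 larvae exposed to 10 ng/L, a description only. In experiment 2 the highest control, at 0.0687, was exceeded by 8 of the 9, the lowest of them at 0.0713 and 0.0722. The overlap rested on 1 larva in each of these experiments. In experiment 3 the highest control was exceeded by 0 of 9, and there it stood at 0.28 and the next at 0.11.

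**Figure D4:**
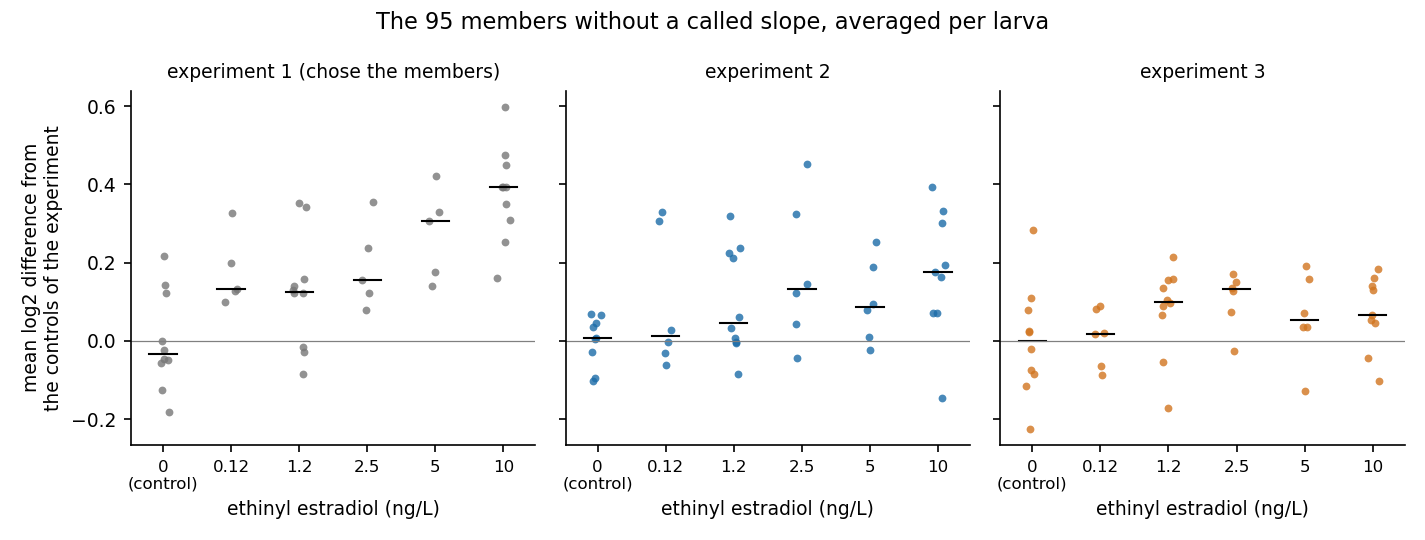
Mean log2 difference of the 95 members from the control mean of the same experiment, 1 point per larva, by concentration, with black lines at the group medians. The medians at 10 ng/L are 0.39 in experiment 1, which chose the members, 0.18 in experiment 2 and 0.07 in experiment 3.

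The 4 members next in order of the p of their slope, a list made after the values were seen, show the size of these shifts. FMt007497 had a median of 136 CPM at 10 ng/L, between 82.8 and 305 CPM, against 90.3 CPM in controls, between 39.9 and 186 CPM. The ranges overlapped widely, and 4 of the 18 exposed larvae exceeded the highest control. Against the controls of their own experiment, 6 of 9 were higher in experiment 2 and 0 of 9 in experiment 3. The slope of FMt007497 was 0.137 ± 0.039 in experiment 2 and 0.061 ± 0.025 in experiment 3 (SE, log2 per unit). The difference between them was not called (edgeR adjusted p = 0.823). Over both experiments its slope of 0.098 ± 0.024 was steeper than that of FMt008590 but its SE was larger. It was not called by edgeR (adjusted p = 0.0911), though DESeq2 did call it. FMt032638, the last member but 1 by rho in experiment 1, had a median of 22.2 CPM in the 10 ng/L larvae and 19.2 CPM in controls and a slope of 0.031 ± 0.008 (adjusted p = 0.192). FMt030524 had a slope of 0.042 (adjusted p = 0.266). FMt034645, the member with the most reads, had a median of 526 CPM in the 10 ng/L larvae and 415 CPM in controls and a slope of 0.049 ± 0.014 (adjusted p = 0.312). For FMt034645 the highest control of both experiments was exceeded by 5 of 20 larvae at 1.2 ng/L and 1 of 18 at 10 ng/L. Against the highest control of their own experiment it was 6 of 9 larvae at 10 ng/L in experiment 2 and 1 of 9 in experiment 3. In the same order 4 of 10 and 4 of 10 were above it at 1.2 ng/L.

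Among the members ranked 5 to 10 in experiment 1, FMt008590 was the only call in experiments 2 and 3. Of the 10 members with the highest rho there, FMt026224, FMt008261, FMt027347, FMt035662 and FMt033792 were not called in experiments 2 and 3. FMt026224 had a rho of 0.611 in experiment 1, 0.406 in experiment 2 and 0.12 in experiment 3, and a slope of 0.025 ± 0.012 (edgeR adjusted p = 0.678). FMt008261 had 0.607, 0.55 and 0.031 in the 3 experiments, and FMt027347 had 0.597, -0.013 and 0.174. FMt033792 had a slope of -0.0045 ± 0.0074. A slope above 0 at an unadjusted p under 0.05 was found for 4 of the 21 members ranked 5 to 25, 9 of the 25 ranked 26 to 50, 4 of the next 25 and 5 of the last 25. Of the 100 transcripts just below the threshold 78 had a slope above 0, 19 of them at an unadjusted p under 0.05, and 2 had a slope below 0 at that p. Among all 28676 ranked transcripts 14055 had a slope above 0, 1107 of them at that p, and 1010 had one below 0 at that p. The median slope of the 100 below the threshold was 0.0157, against 0.0151 for the members and -0.000489 over all ranked transcripts. A rho of at least 0.3 in both experiments was found for 5 of these 100, against 0.119% of all ranked transcripts. The difference between these lists was not tested.

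The members with the lowest slopes were FMt040090, FMt046170, FMt029406, FMt038665 and FMt004416, at -0.029, -0.020, -0.018, -0.0155 and -0.011 on the log2 scale per unit, and their unadjusted p-values ran from 0.0965 to 0.545. FMt040090 had a median of 1.85 CPM at 10 ng/L, between 0.947 and 2.39 CPM, against 1.97 CPM in controls, between 1.27 and 3.32 CPM. Its larvae at 10 ng/L lay under the highest control without exception, while in experiment 1 its rho had been 0.491. FMt029406 had rho of 0.48 in experiment 1, -0.274 in experiment 2 and -0.131 in experiment 3.

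**Figure D5:**
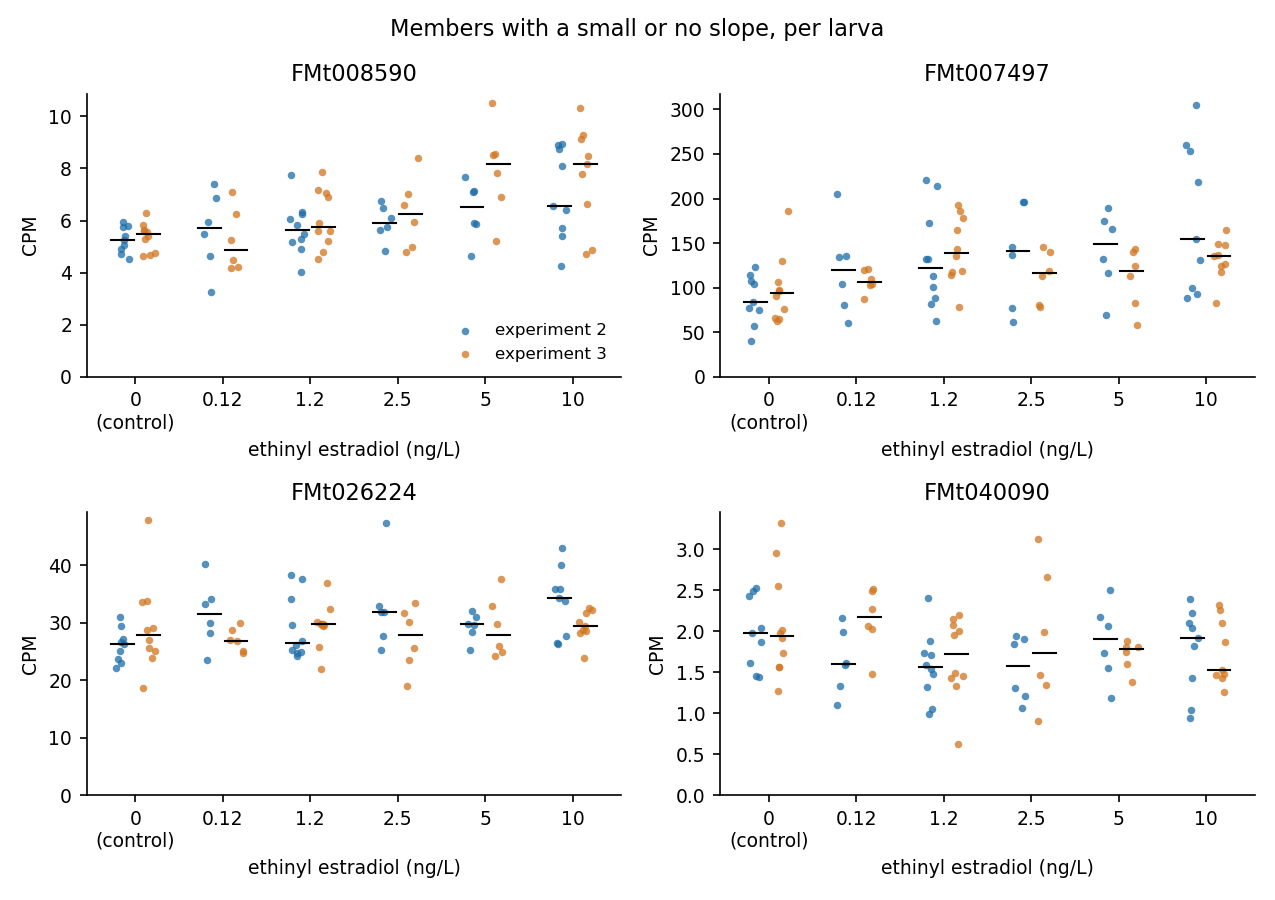
CPM of 4 members in each larva of experiments 2 (blue) and 3 (orange) by concentration, with black lines at the group medians. FMt008590 was called, FMt007497 and FMt026224 were not, and FMt040090 has the lowest slope of all members, with a median of 1.85 CPM at 10 ng/L and 1.97 CPM in controls.

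The members also tended to vary together in experiments 2 and 3. The part of the ranking rule in this was not tested. No like list was compared, so the tendency is not shown to be particular to the members. Around the mean of their group and experiment, over the 93 larvae of experiments 2 and 3, the mean pairwise Pearson correlation of log2 levels was 0.173 among the 95 members and 0.00235 among all ranked transcripts. It was also present without any exposure, at 0.204 in the 10 controls of experiment 3 and 0.0551 in the 9 controls of experiment 2, against 0.00107 and 0.000738 among all ranked transcripts. These correlations are across larvae that share library depth and scaling, and are given as a description. Of the 95 members, 48 correlated above 0.5 with the mean of the others and 12 correlated below 0, from -0.181 to 0.77. The counts of members with a slope above 0 are therefore not counts of separate responses, and the part of this shared variation in them was not tested.

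By identifier, 13 members had another member within 3 numbers, as 1 run of 3 (FMt030406, FMt030407 and FMt030408) and 5 pairs. The members varied slightly less within groups than transcripts at large, with a median within-group SD of 0.297 against 0.333 on the log2 scale. They were also covered by more reads, with a median of 27.7 against 9.46 CPM, and the part of this in the lower SD was not tested. These CPM are not per length and compare read support, not levels between transcripts.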

How the data were processed

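Counts were deposited by the authors as 1 table of raw reads per transcript and library, and the series' design text says that reads were mapped to transcripts known for this fish. The submitters' processing notes name edgeR 3.26.8, limma 3.40.6 and bcl2fastq 2.19.1. Which aligner and counter were run, and with which strand setting, was not given in the sources used here. Left out was a row with no identifier (at most 13 reads per library, 1.64e-05% of reads), and 0 columns were unmapped. Replicate 7 of the 2.5 ng/L group was left out of experiment 1 by the rule that chose the members, and 30768 transcripts had a read in it, against at least 34800 in every other library.

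Concentration comes from the sample titles, and the experiments were taken as consecutive blocks of the title numbers. CPM are counts over the library total, times 1000000. Libraries of experiments 2 and 3 were fitted in R 4.3.3 with edgeR 4.0.16 (filterByExpr, minimum count 10 and total 15, TMM scaling, robust quasi-likelihood, experiment as a term, no replicate block). Slopes and concentrations were tested over all transcripts with Benjamini-Hochberg adjustment. The SE of an estimate is its size over the root of its F value. Correlations used log2(CPM + 0.5) after TMM scaling with factors from all 139 libraries, or log2(CPM + 0.1) for the called members. The fit was also run on simulated counts with known slopes. These held no experiment effect and no correlation between transcripts, and no result here rests on them. Alternatives used DESeq2 1.42.0, limma-voom 3.58.1 and the settings given below. The labels do not give the meaning of the title numbers shared between groups, and larvae were not paired by them in this fit.

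The members, lists and tests were chosen with earlier results of these data known. Transcripts were named by fixed rules: called members, the 10 highest by rho, the 5 lowest slopes, the extremes in CPM, runs of identifiers, members called at any concentration and the ranks around the threshold. FMt007497, FMt024631 and FMt030524 fall outside these rules and were chosen after their values were seen.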

Additional observations from a re-analysis of the deposited data

How the results depend on the processing

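The count of members called on the slope in experiments 2 and 3 stayed between 5 and 6 over the alternatives (RLE scaling, other low-count filters, DESeq2, limma-voom, no experiment term, shallow libraries left out, other concentration scales, an adjusted p under 0.01 and members ranked otherwise). Members rising at an unadjusted p under 0.05 were 26 in the fit reported and 14 with the untransformed concentration as covariate, and the cause was not tested. Over all alternatives that count ran from 14 to 32, and the count of slopes above 0 from 77 to 90. Shares over all transcripts are not given for these alternatives, so the counts are not set against a background. With the untransformed concentration the slopes of FMt033792 and FMt025826 changed sign, to 0.0013 and -0.002 (edgeR adjusted p = 0.999 and 0.999). With the title number as a replicate block that of FMt031085 became -0.0047 (edgeR adjusted p = 0.982). The replicate block left 5 members called on the slope and 24 rising at an unadjusted p under 0.05, and changed no other count of calls by more than 1 member. Same-numbered larvae had a median correlation of their deviations of -0.00951 over 192 pairs, against -0.0148 over 1591 pairs of different number. Single same-numbered pairs ran from -0.307 to 0.474. Closest to their own number were 12 of 93 libraries, and the count to be met without any pairing was not worked out. These values cannot exclude a shared vessel or shared parents. FMt019919 at 2.5 ng/L was not called in experiment 3 alone (1.39, adjusted p = 0.229). FMt008590 at 5 ng/L was called by DESeq2 and by a fit of the 2 groups only (adjusted p = 0.0348 and 0.0347). Ranking experiment 1 on TMM-scaled CPM kept 68 of the 100 members, and keeping replicate 7 of the 2.5 ng/L group kept 90. Chosen after the data were seen, leaving out replicate 53 of the 1.2 ng/L group, the library of experiments 2 and 3 with the fewest transcripts detected, left 5 members called on the slope, and added FMt007497 at 10 ng/L, as did 5 of the other alternatives. Members near 1 CPM rest on about 15 to 22 reads per library, which limits their precision.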
